A study of Mus musculus with 36 samples.

Results

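The 37 genes described here encode neuronal cytoskeleton, growth cone, synaptic vesicle, secretory granule and excitability proteins, with the neuronal RNA-binding proteins and transcription factors that are commonly read beside them. They were chosen by name from 51734 gene symbols in the count table, and all 37 were among the 20511 genes that passed the filter on low counts. Their transcripts were measured by mRNA sequencing in embryonic stem cells of the mouse line E14 (ESC) and in their derivatives under retinoic acid, labelled as neural precursors (NPC). The design sets wild type beside lines altered in MLL3 and MLL4 or in MLL2, which are histone H3K4 methyltransferases. There were 6 groups of 3 libraries. WT is wild type, dCD carries the genotype MLL3/4 dCD, in which MLL3 and MLL4 lack catalytic activity, and MLL2dTAG carries a dTAG degron on MLL2, a tag through which dTAG-13 directs a protein to degradation. The labels list dTAG-13 for all 18 libraries, WT included, so none of the comparisons measures the compound. For NPC, dTAG-13 was given at 2 µM from day 1 and the cells were harvested on day 4, with retinoic acid. For ESC the label gives dTAG-13 alone, and its duration is not given in the sources used here. Each genotype is its own cell line, so the edit and other differences between lines cannot be told apart. The labels do not say whether replicates were separate cultures, so the p-values measure the spread between these samples, which may be technical.

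Neurons grow axons and dendrites on bundles of microtubules and neurofilaments, move cargo along them with kinesin motors, and release transmitter when SNARE proteins fuse synaptic vesicles with the membrane. Outside the nervous system many of these genes are held low by the RE1 silencing complex, while proneural factors and neuronal RNA-binding proteins accompany their activation as progenitors become neurons. RE1 silencing acts through the DNA-binding factor REST and the corepressors and histone-modifying enzymes it recruits.

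Total counts were 19.4 to 46.0 M per library, and all 18 libraries correlated best with one from the same group. Replicate 2 of ESC WT stood apart from its group, with a chi-square per degree of freedom of 7.62 to 9.52 against the other replicates, where all other replicate pairs gave 2.15 to 4.15. Counts without it are given below. A gene count does not check either edit, since both act on the protein. The MLL2dTAG line differed from the others in its Y-linked transcripts, examined after earlier results had shown it. Ddx3y, Eif2s3y, Kdm5d and Uty summed to 195 ± 3.93 CPM in ESC WT, 201 ± 2.66 CPM in ESC dCD and 9.80 ± 0.814 CPM in ESC MLL2dTAG (SD, n = 3). In NPC they summed to 196 ± 2.19 CPM in WT, 202 ± 5.11 CPM in dCD and 0.518 ± 0.122 CPM in MLL2dTAG. Its part in the results below was not tested. CPM are read counts scaled to the library size after TMM normalization, and means carry the SD of 3 libraries.

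**Figure D1:**
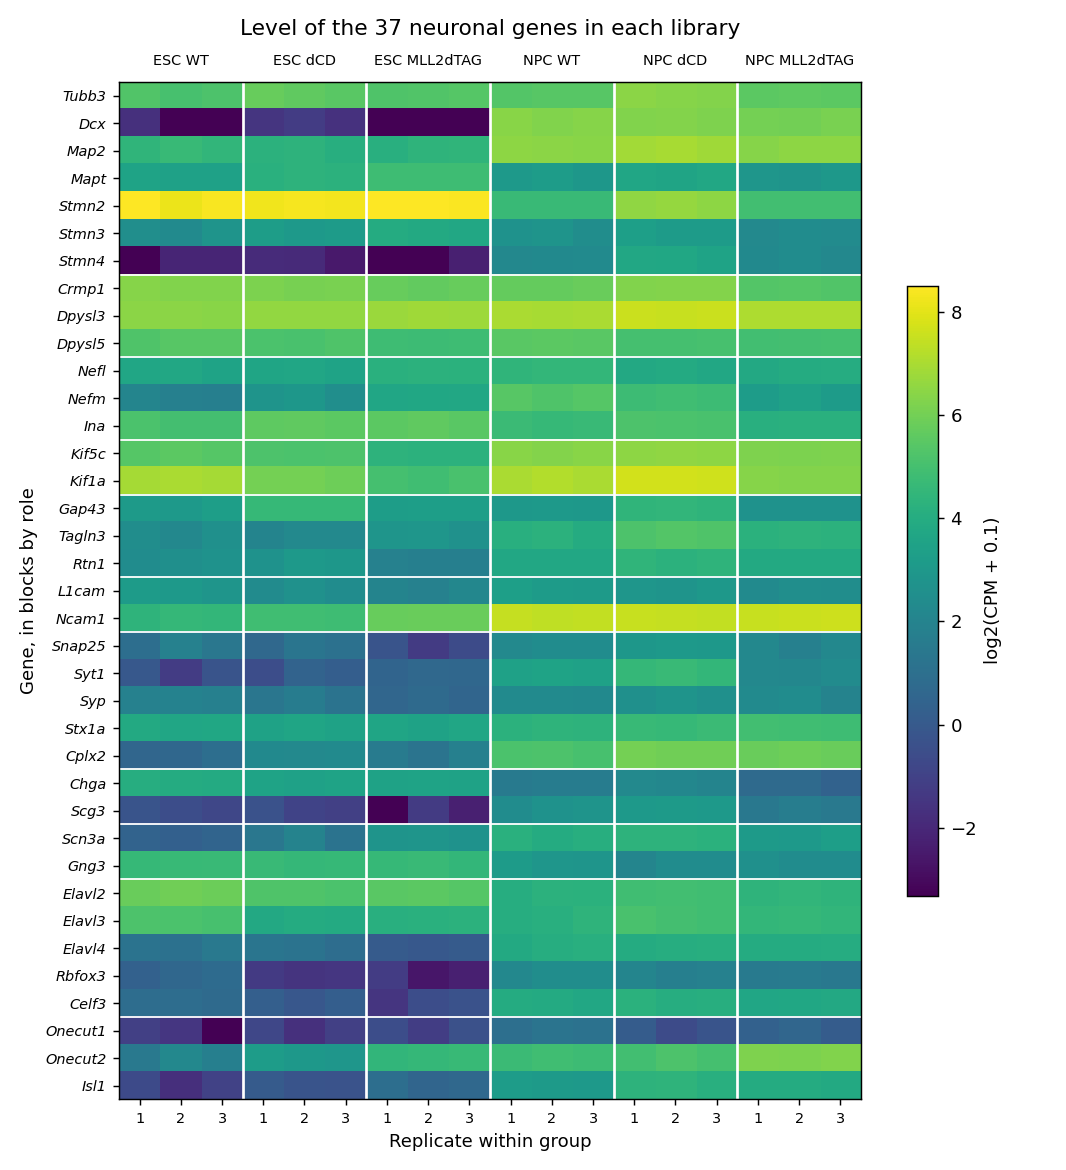
Level of each of the 37 genes, as log2(CPM + 0.1) in colour, in the 18 libraries (columns, by group and replicate), with genes in blocks by role. Stmn2 is brightest in the 9 ESC libraries, Dcx and Stmn4 are dark there, and replicates of a group resemble each other.

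The promoters of 4 genes whose changes are described below are printed here because they show 2 kinds of start region among these genes. RefSeq (GRCm38.p6) gave 47 promoter windows for 26 of the 37 genes, each with 250 bases before a start and 50 after. Windows of 1 gene can overlap. Of the 47, 51.1% were CpG-rich, defined as an observed to expected CpG ratio of at least 0.6 and a GC content of at least 50%, against 33.4% of all 32817 windows. For each printed gene the window nearest to its GENCODE start is shown. Capitals mark matches, on either strand, to the letters CAGCTG (an E-box, the core bound by proneural factors) or GGACAGC (the right part of an RE1 element), which do not overlap each other.

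Tubb3 (chr8:123411303-123411602, plus strand): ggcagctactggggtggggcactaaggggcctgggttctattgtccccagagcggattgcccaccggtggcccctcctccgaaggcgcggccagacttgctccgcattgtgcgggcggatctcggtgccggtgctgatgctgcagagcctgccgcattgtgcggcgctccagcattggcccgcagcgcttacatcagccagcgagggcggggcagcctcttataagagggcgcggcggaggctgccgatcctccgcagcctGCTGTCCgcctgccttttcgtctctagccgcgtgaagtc
Kif1a (chr1:93101825-93102124, minus strand): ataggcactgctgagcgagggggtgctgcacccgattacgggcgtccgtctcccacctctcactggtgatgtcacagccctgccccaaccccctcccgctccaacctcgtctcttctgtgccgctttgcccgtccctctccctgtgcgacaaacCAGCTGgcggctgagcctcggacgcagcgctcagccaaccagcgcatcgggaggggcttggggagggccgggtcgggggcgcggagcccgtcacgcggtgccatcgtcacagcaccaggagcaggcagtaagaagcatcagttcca
Elavl3 (chr9:22051974-22052273, minus strand): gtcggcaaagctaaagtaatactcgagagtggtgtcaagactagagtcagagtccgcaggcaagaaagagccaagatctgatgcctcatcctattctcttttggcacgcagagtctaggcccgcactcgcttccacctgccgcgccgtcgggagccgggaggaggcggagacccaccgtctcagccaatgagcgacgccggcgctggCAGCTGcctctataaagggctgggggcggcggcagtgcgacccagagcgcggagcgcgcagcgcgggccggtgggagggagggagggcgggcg
Dcx (chrX:143933170-143933469, minus strand): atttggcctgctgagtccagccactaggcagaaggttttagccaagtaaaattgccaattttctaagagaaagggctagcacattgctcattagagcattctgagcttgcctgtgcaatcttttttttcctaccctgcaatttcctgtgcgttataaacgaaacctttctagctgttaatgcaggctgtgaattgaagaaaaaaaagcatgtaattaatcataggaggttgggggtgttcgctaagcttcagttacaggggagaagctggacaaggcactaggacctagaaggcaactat

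The windows of Tubb3, Kif1a and Elavl3 were CpG-rich with 26, 24 and 29 CpG, and that of Dcx was not, with 3. CAGCTG was found in 17 of the 47 windows (36.2%), among them that of Kif1a, where it began 96 bases before the start, and Elavl3, where it began 43 bases before. It was found in 16.3% of all windows. GGACAGC was found in 4 (8.51%; in Crmp1, Map2, Rtn1 and Tubb3) against 6.56% of all, and in Tubb3 it lay on the opposite strand 11 bases after the start. The E-box CAGATG was found in 10 (21.3%) against 17.2%, the retinoic acid receptor core AGGTCA in 6 (12.8%) against 16.3%, and TTCAGCACC, the left part of RE1, in 0 against 0.372%. These are letter matches, with the motifs chosen when results were known, and say nothing of binding.

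Most of these genes were higher after differentiation of WT cells, while Stmn2, the most abundant of them in ESC, fell. Of the 37 genes, 25 were higher in WT NPC than in WT ESC, 8 were lower and 4 were not called, at an adjusted p under 0.05 by edgeR's quasi-likelihood test with Benjamini-Hochberg adjustment over all genes. The same test called 79.5% of all genes, 39.1% higher and 40.4% lower. The members' median log2 fold change was 0.89 against -0.04 over all genes tested. All 5 synaptic vesicle genes and all 3 transcription factors were higher. The 8 lower genes were Stmn2, Mapt, Crmp1, Ina, Chga, Gng3, Elavl2 and Elavl3, and Stmn3, Dpysl5, Gap43 and L1cam were not called, with log2 changes of -0.18 to 0.18. Without ESC WT replicate 2 there were 26 higher and 9 lower against 75.8% of all genes called. In bulk cultures, fewer cells of a type and less RNA per cell cannot be told apart.

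**Figure D2:**
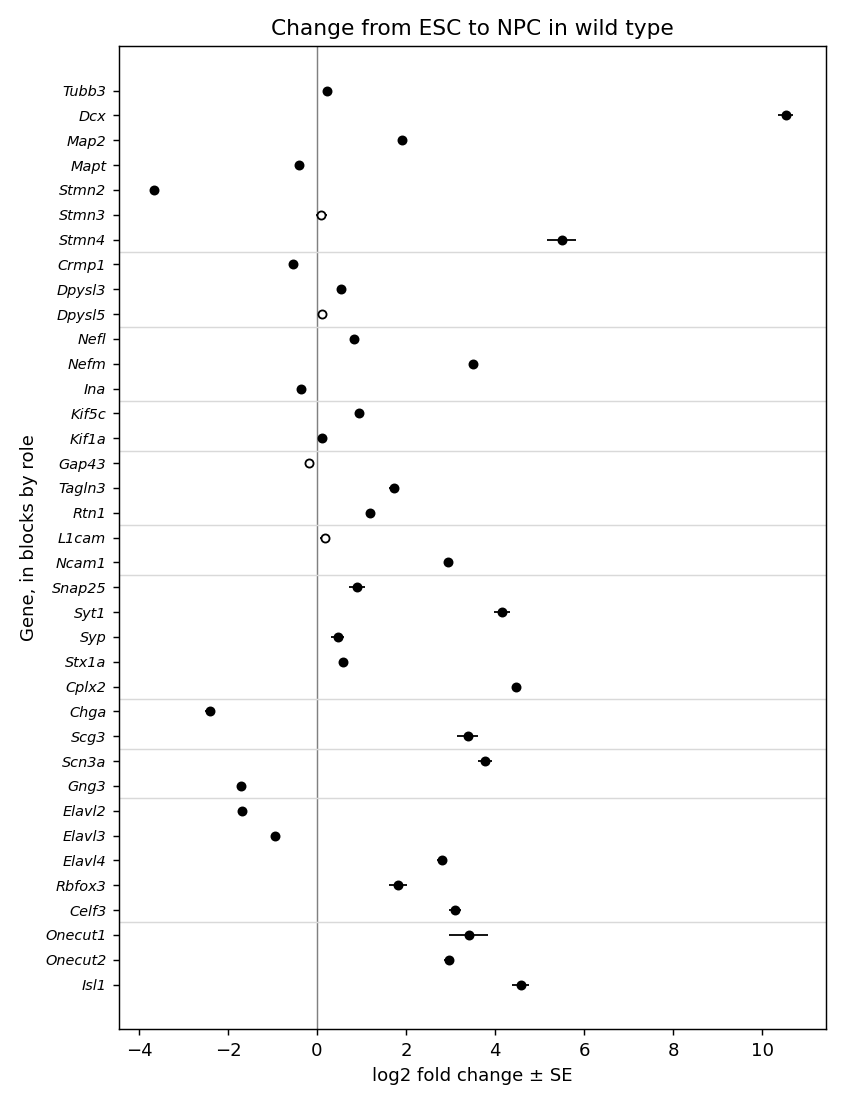
Log2 fold change of each gene in WT NPC against WT ESC (points, with SE as bars), by role; filled points were called at adjusted p under 0.05 and hollow points were not. Dcx and Stmn4 lie farthest right and Stmn2 farthest left. The values of Dcx and Stmn4 rest on 4 and 8 counts over the ESC WT libraries.

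In ESC the edited lines shifted these genes both ways. In dCD 14 were higher and 13 lower than in WT, with 10 not called and a median log2 change of -0.04, against 0.02 over all genes. Of all genes 48.3% were called, 25.7% higher and 22.6% lower. In MLL2dTAG 15 were higher and 17 lower, with a median of -0.13 against 0.00 over all genes, where 56.9% of all genes were called, 28.7% higher and 28.2% lower. Among genes called in both lines, 10 were higher in both and 12 lower in both. Dcx, on few counts, and Rtn1 were higher in dCD and lower in MLL2dTAG. Both comparisons share the WT libraries, and the share of all genes called alike was not counted. Of the 5 RNA-binding protein genes, 4 were lower in dCD and all 5 in MLL2dTAG, and both kinesin genes were lower in both lines. All 3 transcription factor genes were higher in MLL2dTAG, but the Onecut1 call, on few counts, was lost without ESC WT replicate 3 (0.77 in place of 1.43). Without ESC WT replicate 2 the counts were 12 higher and 14 lower in dCD against 43.8% of all genes called, and 13 higher and 16 lower in MLL2dTAG against 52.5%.

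In NPC the lines differed in their balance of higher and lower calls. In dCD 26 of the 37 genes were higher than in WT and 7 lower, with a median log2 change of 0.50 against -0.02 over all genes, of which 53.5% were called, 26.7% higher and 26.8% lower. In MLL2dTAG 9 were higher and 18 lower, with a median of -0.19 against 0.03, and 61.7% of all genes were called, 33.3% higher and 28.4% lower. Scaling by upper quartile or by library totals alone gave 6 higher and 20 lower there. In dCD the higher genes included 6 of 7 microtubule genes, all 5 synaptic vesicle genes, all 3 growth cone and membrane genes, and both kinesin and both granule genes. In MLL2dTAG all 3 neurofilament genes, both kinesin genes, both granule genes and both excitability genes were lower. The comparisons of the 2 lines share the WT libraries. Values for genes that were higher in dCD and lower in MLL2dTAG, which were Stmn3, Crmp1, Ina, Kif5c, Kif1a, Gap43, Syt1, Chga and Scg3, are given side by side below, where paired values stand in the order dCD, MLL2dTAG. None was lower in dCD and higher in MLL2dTAG. Among genes called in both lines, 8 were higher in both and 7 were lower in both. The shares of all genes called in the same or in opposite directions were not counted, so neither pattern is shown to be particular to these genes.

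**Figure D3:**
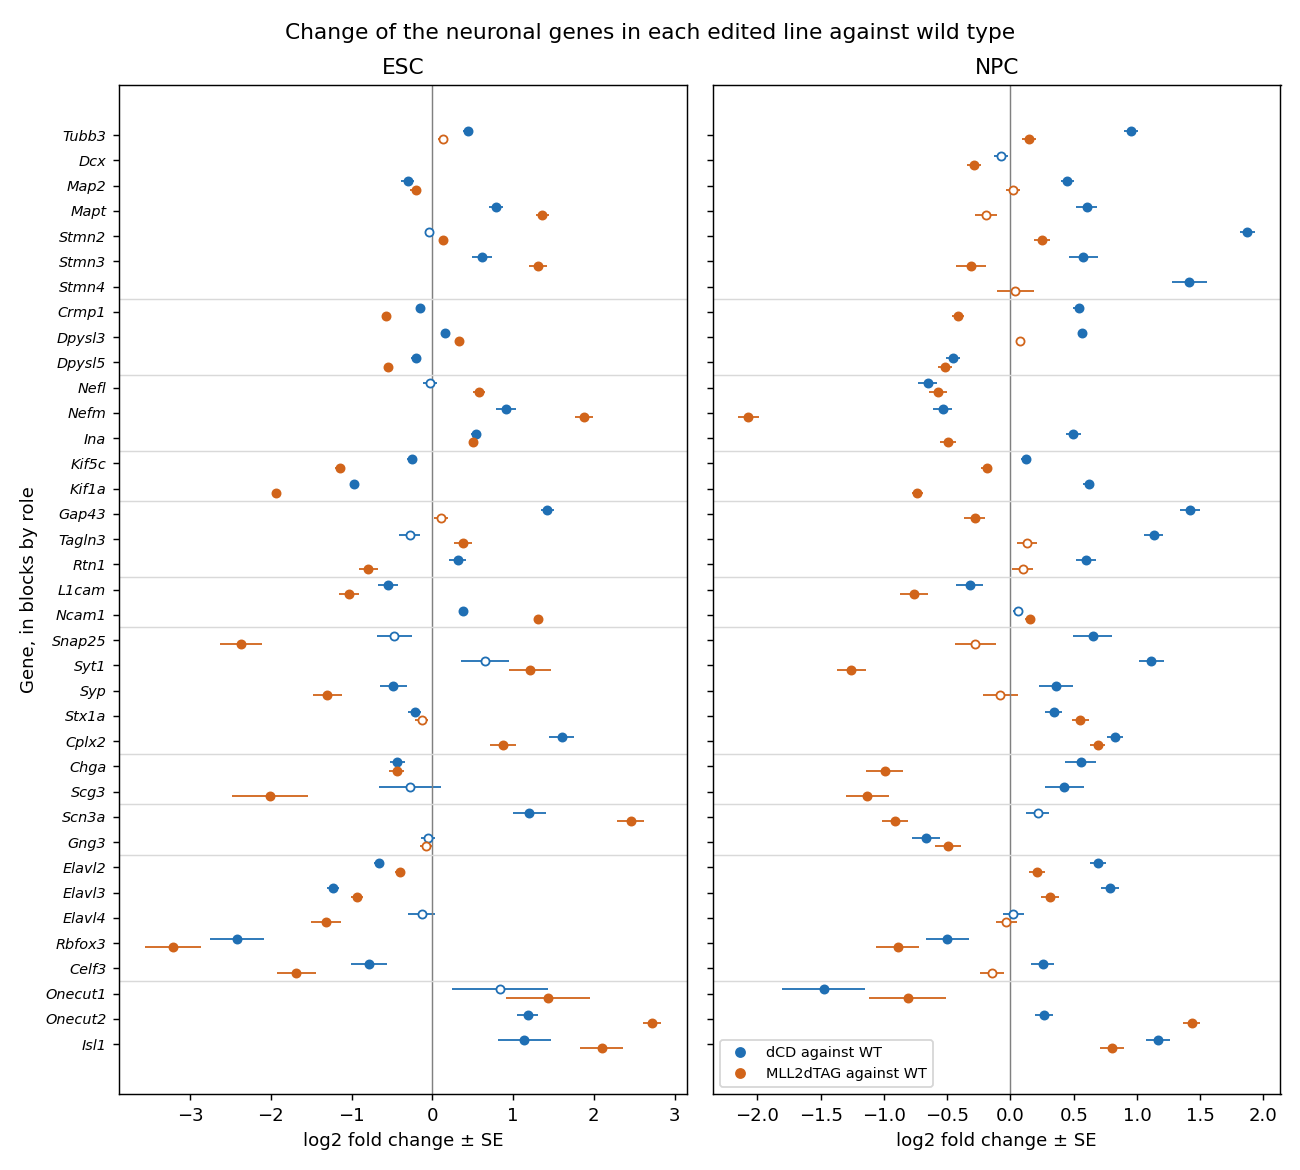
Log2 fold change against WT (points, with SE as bars) of dCD in blue and MLL2dTAG in orange, in ESC on the left and in NPC on the right; filled points were called and hollow points were not. Dcx and Stmn4 are left out of the ESC panel because their ESC groups held 0 to 20 counts. In NPC most blue points lie right of 0 and most orange points do not.

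A direct test of MLL2dTAG against dCD gave 28 of the 37 genes lower in MLL2dTAG NPC, 3 higher and 6 not called. It compares no WT mean, but its filter, scaling and spread come from the fit of all 18 libraries. Its median was -0.48 against 0.05 over all genes, of which 55.9% were called, 31.6% higher and 24.3% lower. All 7 microtubule genes were lower in that test, among them Stmn2 at -1.62 (SE 0.06) and Tubb3 at -0.81 (SE 0.05). Stx1a, Ncam1 and Onecut2 were higher, the calls of Stx1a and Ncam1 being lost under upper-quartile scaling, library totals or no filter on low counts. The Ncam1 change, 0.09, lost its call under 11 of 15 alternatives, among them DESeq2 and the fit of the compared groups alone. In ESC the same test gave 14 higher and 15 lower, where 47.2% of all genes were called, 23.4% higher and 23.7% lower.

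The microtubule group holds the neuronal beta-tubulin Tubb3, the microtubule-associated proteins Dcx, Map2 and Mapt (tau), and the tubulin-binding stathmins Stmn2, Stmn3 and Stmn4. Stmn2 was at 359, 285 and 336 CPM in WT, 309, 325 and 320.3 CPM in dCD and 361, 365 and 343 CPM in MLL2dTAG in ESC. In NPC, Stmn2 was at 25.7, 25.7 and 25.6 CPM in WT, 91.9, 99.6 and 90.2 CPM in dCD and 30.3, 30.6 and 30.8 CPM in MLL2dTAG. Every ESC library lay above every NPC library. In NPC the dCD libraries lay well above both other groups, which were close together without overlap, and in ESC WT overlapped both lines. Stmn2 thus fell by 3.67 (SE 0.06) on the log2 scale from WT ESC to WT NPC, and was higher in NPC dCD by 1.87 (SE 0.06) and in NPC MLL2dTAG by 0.25 (SE 0.06). The adjusted p for dCD was 1.56e-24. In ESC MLL2dTAG the log2 change was 0.13. It was not called when ESC WT replicate 2 was left out (0.04, adjusted p 0.382 by edgeR), nor without ESC MLL2dTAG replicate 1 or 2, under upper-quartile scaling, with a filter at a mean of 1 CPM, or in the fit of the compared groups alone.

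Stmn3 had 5.70, 4.94 and 6.87 CPM in WT, 9.60, 8.33 and 9.02 CPM in dCD and 15.7, 14.4 and 13.5 CPM in MLL2dTAG in ESC. In NPC, Stmn3 had 6.52, 6.87 and 5.42 CPM in WT, 10.2, 8.996 and 8.92 CPM in dCD and 4.60, 5.34 and 5.17 CPM in MLL2dTAG. In ESC the groups stepped up from WT to dCD to MLL2dTAG without overlap, while in NPC MLL2dTAG lay lowest, with its highest library just below the lowest of WT. Its log2 changes were 0.62 and 1.31 (SE 0.11) in ESC, and 0.58 and -0.31 (SE 0.12) in NPC, for dCD and MLL2dTAG in that order. The last of these was lost without NPC WT replicate 1 or 2, or without NPC MLL2dTAG replicate 1 (adjusted p 0.068 to 0.133 by edgeR).

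Tubb3 and Dcx are given in full as the commonest marks of young neurons, a choice made after their values were seen. Tubb3 was at 38.9, 33.8 and 37.1 CPM in WT, 53.6, 49.9 and 45.3 CPM in dCD and 37.8, 39.6 and 42.2 CPM in MLL2dTAG in ESC. In NPC, Tubb3 was at 40.01, 43.9 and 43.5 CPM in WT, 86.5, 82.1 and 78.6 CPM in dCD and 46.03, 48.2 and 46.6 CPM in MLL2dTAG. The dCD libraries stood highest at both stages. WT and MLL2dTAG overlapped in ESC, and in NPC MLL2dTAG lay just above WT. Tubb3 rose by 0.44 (SE 0.06) in ESC dCD and 0.96 (SE 0.06) in NPC dCD. Its change in NPC MLL2dTAG, 0.15 (SE 0.06), was not called under upper-quartile scaling (0.05, adjusted p 0.41 by edgeR) or library totals (0.06), without a filter on low counts, in the fit of the compared groups alone, or without NPC WT replicate 1 or NPC MLL2dTAG replicate 2.

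Dcx, a microtubule-binding protein of migrating young neurons, had 4 counts over the ESC WT libraries, all in replicate 1, with 20 in ESC dCD and 0 in ESC MLL2dTAG. In NPC, Dcx was at 84.8, 76.98 and 82.5 CPM in WT, 76.3, 80.3 and 75.4 CPM in dCD and 66.1, 64.1 and 70.1 CPM in MLL2dTAG. Dcx was thus near the floor of 3 counts in ESC. In NPC the WT and dCD libraries overlapped, and MLL2dTAG lay below both. The counting ratio of NPC WT to ESC WT was 1590 (95% interval 621 to 5840), for counting error only. That of ESC dCD to ESC WT was 5.27 (1.76 to 21.2). The fitted log2 change, 2.31, was 6.16 without ESC WT replicate 1, and 1.65 and 1.67 without replicate 2 or 3, when it was no longer called. The lower call of ESC MLL2dTAG against WT rests on the 4 counts of ESC WT replicate 1 and was lost without that library and under 7 other alternatives. With its 0 counts set to a floor of 3 counts over the group, ESC MLL2dTAG lay 8.76-fold below ESC dCD. The exact 95% interval of the ratio of ESC MLL2dTAG to ESC dCD reached up to 0.154, which allows a smaller fall. In NPC, MLL2dTAG changed Dcx by -0.29 (SE 0.06).

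Among the other microtubule genes, Map2 rose with differentiation by 1.91 (SE 0.06) and was higher again in NPC dCD by 0.45, from 87.04 ± 2.23 to 119 ± 5.44 CPM. Mapt was higher in both lines in ESC (0.79 and 1.36) and in NPC dCD (0.60). Stmn4 had 8 counts over ESC WT and 4.76 ± 0.232 CPM in NPC WT, and reached 12.7 ± 0.954 CPM in NPC dCD, a log2 change of 1.42 (SE 0.14).

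The collapsin response mediator proteins relay guidance signals to the growth cone cytoskeleton. Dpysl3, the most abundant of the 3 here, was at 86.3, 88.7 and 86.2 CPM in WT, 97.8, 97.3 and 95.2 CPM in dCD and 107, 112 and 109 CPM in MLL2dTAG in ESC. In NPC, Dpysl3 was at 127, 125 and 127 CPM in WT, 191, 184 and 187 CPM in dCD and 132, 133 and 134 CPM in MLL2dTAG. The ESC groups rose in the order WT, dCD, MLL2dTAG without overlap, while in NPC dCD stood far above the others. Dpysl3 was higher in NPC dCD by 0.57 (SE 0.03).

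Crmp1 showed the opposite call in the 2 lines in NPC. It was at 81.3, 76.3 and 77.8 CPM in WT, 73.3, 68.7 and 70.02 CPM in dCD and 53.7, 50.5 and 54.3 CPM in MLL2dTAG in ESC. In NPC, Crmp1 was at 53.1, 52.1 and 55.6 CPM in WT, 76.9, 78.5 and 78.7 CPM in dCD and 39.9, 41.5 and 39.1 CPM in MLL2dTAG. The MLL2dTAG libraries were lowest at both stages, while dCD lay below WT in ESC and above it in NPC, with no overlap between groups. Its log2 changes were -0.15 (SE 0.04) in ESC dCD and -0.57 (SE 0.04) in ESC MLL2dTAG, then 0.54 (SE 0.04) and -0.41 (SE 0.04) in NPC. Without a filter on low counts the ESC dCD change was not called (adjusted p 0.0533 by edgeR). Dpysl5 was lower in both lines at both stages, at -0.21 and -0.55 in ESC and -0.45 and -0.52 in NPC, for dCD and MLL2dTAG in that order.

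Neurofilament subunits form the intermediate filaments of axons, Nefl and Nefm as the light and medium chains and Ina as alpha-internexin of early neurons. In GENCODE vM21, Nefl and Nefm share 1108 exon bases on opposite strands (32.8% and 19.2% of their exons), and Ina shares 14.1% with Nt5c2 on the opposite strand. The strand setting of the counts is not given in the sources used here. How reads in those stretches were counted is thus not known, and these values are uncertain.

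Nefm was at 4.05, 3.45 and 3.33 CPM in WT, 6.83, 7.62 and 5.74 CPM in dCD and 12.6, 12.98 and 13.6 CPM in MLL2dTAG in ESC. In NPC, Nefm was at 42.5, 38.2 and 41.6 CPM in WT, 27.5, 29.3 and 27.5 CPM in dCD and 9.19, 10.95 and 8.82 CPM in MLL2dTAG. The order of the groups was WT, dCD, MLL2dTAG from low to high in ESC and the reverse in NPC, with no overlap. Nefm rose by 3.52 (SE 0.10) from ESC to NPC in WT. It changed by 1.88 (SE 0.11) in ESC MLL2dTAG and by -2.07 (SE 0.08) in NPC MLL2dTAG (adjusted p 2.6e-22), and by 0.91 and -0.54 (SE 0.07) in dCD.

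Ina was at 35.8, 31.6 and 30.998 CPM in WT, 47.5, 49.3 and 45.7 CPM in dCD and 46.6, 48.4 and 44.02 CPM in MLL2dTAG in ESC. In NPC, Ina was at 26.4, 24.2 and 25.6 CPM in WT, 36.7, 35.8 and 34.97 CPM in dCD and 17.8, 18.1 and 18.1 CPM in MLL2dTAG. Both lines lay above WT in ESC, and in NPC dCD lay above and MLL2dTAG below it. The log2 changes were 0.54 and 0.51 in ESC, and 0.50 (SE 0.06) and -0.49 (SE 0.06) in NPC. Nefl was lower in both lines in NPC (-0.65 in dCD and -0.57 in MLL2dTAG), from 22.3 ± 1.03 CPM in WT.

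Kif5c and Kif1a are kinesins, Kif1a the carrier of synaptic vesicle precursors along axons and Kif5c a heavy chain of conventional kinesin. Kif1a was at 120.1, 129 and 121 CPM in WT, 65.5, 64.9 and 59.3 CPM in dCD and 32.1, 29.8 and 34.7 CPM in MLL2dTAG in ESC. In NPC, Kif1a was at 130.4, 141 and 130.05 CPM in WT, 209.6, 207 and 200.03 CPM in dCD and 81.2, 79.7 and 80.4 CPM in MLL2dTAG. ESC fell from WT to dCD to MLL2dTAG, and in NPC dCD was above WT and MLL2dTAG below, with no overlap at either stage. Its log2 changes were -0.97 (SE 0.05) and -1.94 (SE 0.05) in ESC, and 0.62 (SE 0.04) and -0.73 (SE 0.04) in NPC. The WT change between stages, 0.11, lost its call under 5 of the alternatives tried, with values down to 0.03.

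Kif5c was at 41.7, 46.1 and 41.8 CPM in WT, 37.3, 35.2 and 36.3 CPM in dCD and 19.7, 19.5 and 19.5 CPM in MLL2dTAG in ESC. In NPC, Kif5c was at 84.2, 79.3 and 85.6 CPM in WT, 89.2, 92.7 and 89.4 CPM in dCD and 73.6, 71.9 and 73.5 CPM in MLL2dTAG. MLL2dTAG was lowest at both stages without overlap, and dCD was lower than WT in ESC and higher in NPC. The log2 changes were -0.26 and -1.15 (SE 0.05) in ESC, and 0.12 (SE 0.04) and -0.19 (SE 0.04) in NPC. The small rise in NPC dCD lost its call without NPC WT replicate 2 (0.09) or NPC dCD replicate 2 (0.11).

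The growth cone and membrane group holds Gap43, a growth cone phosphoprotein, Tagln3, a neuronal actin-binding protein, and Rtn1, a reticulon of neuronal endoplasmic reticulum. Gap43 was at 8.57, 8.36 and 9.89 CPM in WT, 24.1, 24.2 and 23.9 CPM in dCD and 9.49, 9.69 and 9.74 CPM in MLL2dTAG in ESC. In NPC, Gap43 was at 7.88, 8.04 and 7.76 CPM in WT, 21.04, 21.7 and 20.6 CPM in dCD and 6.38, 6.54 and 6.55 CPM in MLL2dTAG. dCD stood alone at a high level at both stages, while MLL2dTAG was within the range of WT in ESC and below it in NPC. Gap43 rose by 1.42 (SE 0.08) in ESC dCD and 1.42 (SE 0.08) in NPC dCD (adjusted p 7.54e-18), and changed by -0.28 (SE 0.08) in NPC MLL2dTAG.

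Tagln3 was at 5.43, 4.51 and 6.02 CPM in WT, 3.88, 4.60 and 4.59 CPM in dCD and 7.07, 7.39 and 6.29 CPM in MLL2dTAG in ESC. In NPC, Tagln3 was at 17.4, 19.5 and 15.5 CPM in WT, 37.2, 39.9 and 38.02 CPM in dCD and 18.7, 19.7 and 19.2 CPM in MLL2dTAG. The NPC dCD libraries lay above all others, and NPC WT and MLL2dTAG overlapped. In ESC MLL2dTAG lay above WT and dCD, which overlapped. Tagln3 rose by 1.13 (SE 0.08) in NPC dCD. In ESC MLL2dTAG it rose by 0.38, not called when ESC WT replicate 2 was left out (0.26). Rtn1 was higher in NPC dCD (0.60) and lower in ESC MLL2dTAG (-0.79).

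L1cam and Ncam1 are immunoglobulin cell adhesion molecules of axons. Ncam1 was at 20.9, 23.2 and 22.5 CPM in WT, 29.8, 29.2 and 28.4 CPM in dCD and 54.96, 55.3 and 56.1 CPM in MLL2dTAG in ESC. In NPC, Ncam1 was at 175, 164 and 174 CPM in WT, 186, 176 and 173 CPM in dCD and 183, 192 and 195 CPM in MLL2dTAG. In ESC the groups rose from WT to dCD to MLL2dTAG without overlap, and in NPC the dCD libraries overlapped both other groups. Ncam1 rose with differentiation by 2.94 (SE 0.05). It rose by 1.31 (SE 0.05) in ESC MLL2dTAG, and by 0.15 (SE 0.04) in NPC MLL2dTAG, which was not called under upper-quartile scaling (0.06, adjusted p 0.17 by edgeR) or library totals (0.07).

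L1cam was at 8.89, 8.39 and 7.21 CPM in WT, 5.08, 6.21 and 5.33 CPM in dCD and 3.88, 3.54 and 4.39 CPM in MLL2dTAG in ESC. In NPC, L1cam was at 10.03, 8.79 and 8.71 CPM in WT, 7.33, 6.87 and 7.80 CPM in dCD and 4.92, 5.72 and 5.51 CPM in MLL2dTAG. WT was highest and MLL2dTAG lowest at both stages, with no overlap between groups. The log2 changes were -0.55 and -1.04 (SE 0.12) in ESC, and -0.32 (SE 0.11) and -0.76 (SE 0.11) in NPC. The dCD change in NPC lost its call without NPC WT replicate 1 or NPC dCD replicate 2.

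In the synaptic vesicle group, Snap25 and Stx1a are SNARE proteins, Syt1 the calcium sensor of release, Cplx2 a complexin that clamps the SNARE complex, and Syp a vesicle membrane protein. Cplx2 was at 1.38, 1.46 and 1.84 CPM in WT, 4.82, 4.68 and 4.92 CPM in dCD and 2.89, 2.27 and 3.45 CPM in MLL2dTAG in ESC. In NPC, Cplx2 was at 35.8, 36.4 and 33.7 CPM in WT, 66.5, 60.7 and 60.7 CPM in dCD and 56.3, 58.8 and 55.8 CPM in MLL2dTAG. Both lines lay above WT at both stages, dCD highest, without overlap. Cplx2 rose by 4.48 (SE 0.11) from ESC to NPC in WT, by 1.60 in dCD and 0.87 in MLL2dTAG in ESC, and by 0.83 (SE 0.06) and 0.69 (SE 0.06) in NPC.

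Syt1 was at 0.852, 0.332 and 0.748 CPM in WT, 0.598, 1.24 and 1.04 CPM in dCD and 1.32, 1.49 and 1.46 CPM in MLL2dTAG in ESC. In NPC, Syt1 was at 10.7, 11.7 and 10.8 CPM in WT, 23.5, 25.6 and 22.8 CPM in dCD and 4.51, 4.33 and 5.06 CPM in MLL2dTAG. In NPC the dCD libraries were highest and MLL2dTAG lowest, with WT between and no overlap, while in ESC WT and dCD overlapped below MLL2dTAG. The ESC WT libraries together held 48 counts of Syt1. Syt1 changed by 1.11 (SE 0.10) in NPC dCD (adjusted p 8.79e-12) and by -1.26 (SE 0.12) in NPC MLL2dTAG (adjusted p 8.97e-12), and rose by 1.21 (SE 0.26) in ESC MLL2dTAG.

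Snap25 rose in NPC dCD by 0.65 (SE 0.16) and fell by 2.37 (SE 0.26) on the log2 scale in ESC MLL2dTAG, from 2.64 ± 0.913 to 0.531 ± 0.212 CPM. Syp was lower in both lines in ESC (-0.48 in dCD and -1.30 in MLL2dTAG) and higher in NPC dCD (0.36). The ESC dCD call of Syp was lost without ESC WT replicate 2 or ESC dCD replicate 1 or 3 and without a filter on low counts, and the NPC dCD call without NPC WT replicate 3 or NPC dCD replicate 2 (adjusted p 0.0503 to 0.124 by edgeR). In GENCODE, 16.8% of its exon bases overlap an antisense gene, Gm14703, so its value is uncertain. Stx1a was higher in NPC in both lines (0.34 in dCD and 0.55 in MLL2dTAG). Its lower call in ESC dCD (-0.22) was lost without ESC WT replicate 1, without ESC dCD replicate 1 or 3, or without a filter on low counts (adjusted p 0.0797 to 0.12 by edgeR).

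Chga and Scg3 encode granin proteins of dense-core secretory granules. Chga was at 16.3, 15.3 and 14.8 CPM in WT, 11.7, 10.9 and 11.7 CPM in dCD and 11.1, 11.5 and 11.3 CPM in MLL2dTAG in ESC. In NPC, Chga was at 2.75, 2.98 and 3.02 CPM in WT, 4.60, 4.30 and 3.99 CPM in dCD and 1.60, 1.59 and 1.20 CPM in MLL2dTAG. WT was highest in ESC, where the lines overlapped, and in NPC dCD was highest and MLL2dTAG lowest without overlap. Chga fell by 2.40 (SE 0.11) on the log2 scale with differentiation in WT. Its log2 changes in NPC were 0.55 (SE 0.12) in dCD and -0.99 (SE 0.14) in MLL2dTAG.

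Scg3 was at 0.745, 0.597 and 0.476 CPM in WT, 0.683, 0.414 and 0.373 CPM in dCD and 0, 0.31 and 0.104 CPM in MLL2dTAG in ESC. In NPC, Scg3 was at 5.38, 6.39 and 6.82 CPM in WT, 8.37, 8.66 and 8.01 CPM in dCD and 2.61, 3.18 and 2.66 CPM in MLL2dTAG. NPC dCD lay above WT and MLL2dTAG below it without overlap, and every ESC library was below 1 CPM. Scg3 rose by 3.39 (SE 0.24) with differentiation. In NPC it changed by 0.43 (SE 0.16) in dCD, a call lost without NPC WT replicate 1 or NPC dCD replicate 2, and by -1.13 (SE 0.17) in MLL2dTAG.

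Scn3a encodes a voltage-gated sodium channel of the developing brain and Gng3 a neuronal G protein gamma subunit. Scn3a was at 1.28, 1.13 and 1.29 CPM in WT, 2.52, 3.85 and 2.16 CPM in dCD and 6.92, 7.05 and 6.34 CPM in MLL2dTAG in ESC. In NPC, Scn3a was at 18.1, 15.4 and 17.1 CPM in WT, 20.1, 19.9 and 18.6 CPM in dCD and 8.72, 8.21 and 9.91 CPM in MLL2dTAG. MLL2dTAG was highest in ESC and lowest in NPC, and no groups overlapped. Scn3a rose by 2.46 (SE 0.17) in ESC MLL2dTAG and changed by -0.91 (SE 0.10) in NPC MLL2dTAG.

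Gng3 was at 24.3, 25.3 and 26.2 CPM in WT, 26.2, 23.2 and 23.97 CPM in dCD and 24.3, 25.5 and 22.4 CPM in MLL2dTAG in ESC. In NPC, Gng3 was at 8.93, 7.46 and 7.15 CPM in WT, 4.08, 5.27 and 5.37 CPM in dCD and 6.05, 5.37 and 5.30 CPM in MLL2dTAG. The ESC groups overlapped, and in NPC both lines lay below WT. Gng3 fell by 1.70 (SE 0.09) on the log2 scale with differentiation in WT, and changed by -0.67 (SE 0.11) in NPC dCD and -0.49 (SE 0.10) in NPC MLL2dTAG. In GENCODE, 24.2% of its exon bases overlap Bscl2 on the opposite strand, so its value is uncertain.

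Elavl2, Elavl3, Elavl4, Rbfox3 and Celf3 encode neuronal RNA-binding proteins that act on splicing, stability or translation of transcripts, and Rbfox3 is the NeuN antigen of mature neurons. Elavl2 was at 56.1, 60.9 and 57.99 CPM in WT, 37.5, 37.9 and 35.2 CPM in dCD and 44.7, 45.5 and 42.1 CPM in MLL2dTAG in ESC. In NPC, Elavl2 was at 16.5, 19.3 and 18.9 CPM in WT, 29.02, 30.4 and 29.04 CPM in dCD and 20.4, 22.2 and 20.6 CPM in MLL2dTAG. WT was highest in ESC and lowest in NPC, dCD was lowest in ESC and highest in NPC, and no groups overlapped. Elavl2 changed by -0.66 (SE 0.06) in ESC dCD and -0.41 (SE 0.06) in ESC MLL2dTAG, and rose by 0.69 (SE 0.06) in NPC dCD and 0.21 (SE 0.06) in NPC MLL2dTAG. The last call was lost under upper-quartile scaling (0.12) and library totals (0.13), and without NPC WT replicate 1 (0.15).

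Rbfox3 was at 1.17, 1.46 and 1.67 CPM in WT, 0.299, 0.249 and 0.261 CPM in dCD and 0.33, 0.0621 and 0.104 CPM in MLL2dTAG in ESC. In NPC, Rbfox3 was at 4.49, 5.43 and 5.47 CPM in WT, 4.02, 3.31 and 3.61 CPM in dCD and 2.73, 2.98 and 2.58 CPM in MLL2dTAG. Both lines lay below WT at both stages, and in ESC they were close to the floor and overlapped each other. Rbfox3 changed by -2.42 (SE 0.34) in ESC dCD and by -3.21 (SE 0.35) in ESC MLL2dTAG, and by -0.50 (SE 0.17) and -0.89 (SE 0.17) in NPC. The ESC MLL2dTAG value was -4.04 without ESC MLL2dTAG replicate 1. The NPC dCD call was lost without NPC WT replicate 2 or 3, or NPC dCD replicate 2.

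Elavl3 was lower in both lines in ESC, at -1.23 (SE 0.08) in dCD and -0.93 (SE 0.07) in MLL2dTAG, and higher in both in NPC, at 0.79 (SE 0.07) and 0.31 (SE 0.07). Its mean went from 34.9 ± 1.62 CPM in ESC WT to 18.2 ± 2.07 in NPC WT. Celf3 was lower in ESC in both lines (-0.78 and -1.68) and higher in NPC dCD (0.26), a call lost without NPC WT replicate 3 or NPC dCD replicate 1. Elavl4 was lower in ESC MLL2dTAG at -1.32 (SE 0.19), and in NPC stood at 16.04 ± 1.504 CPM in WT, 16.3 ± 0.931 in dCD and 15.7 ± 0.329 in MLL2dTAG, with no call in either line.

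Onecut1, Onecut2 and Isl1 encode transcription factors of developing motor and sensory neurons, among other tissues. Onecut2 was at 2.66, 4.45 and 3.30 CPM in WT, 9.22, 7.79 and 7.38 CPM in dCD and 22.1, 23.4 and 25.01 CPM in MLL2dTAG in ESC. In NPC, Onecut2 was at 26.3, 29.2 and 27.6 CPM in WT, 30.6, 36.5 and 32.8 CPM in dCD and 74.95, 71.8 and 78.1 CPM in MLL2dTAG. The groups rose from WT to dCD to MLL2dTAG at both stages without overlap, with MLL2dTAG far above the others in NPC. Onecut2 rose by 2.72 (SE 0.11) in ESC MLL2dTAG and 1.43 (SE 0.07) in NPC MLL2dTAG, and by 1.18 and 0.27 (SE 0.07) in dCD.

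Onecut1 was at 0.373, 0.265 and 0 CPM in WT, 0.47, 0.207 and 0.373 CPM in dCD and 0.586, 0.342 and 0.653 CPM in MLL2dTAG in ESC. In NPC, Onecut1 was at 1.90, 2.26 and 2.12 CPM in WT, 0.982, 0.552 and 0.733 CPM in dCD and 1.16, 1.41 and 0.991 CPM in MLL2dTAG. WT was highest and dCD lowest in NPC without overlap, and in ESC all groups overlapped below 1 CPM. Onecut1 changed by -1.48 (SE 0.33) in NPC dCD and -0.81 (SE 0.30) in NPC MLL2dTAG, the second lost without NPC WT replicate 2 or NPC MLL2dTAG replicate 1 or 3. Its rise in ESC MLL2dTAG, 1.43 (SE 0.52), lost its call without ESC WT replicate 3 (0.77, adjusted p 0.176 by edgeR), without ESC MLL2dTAG replicate 3, or in the fit of the compared groups alone. Its rise with differentiation, 3.41 (SE 0.44), was 2.75 without ESC WT replicate 3, which holds 0 counts. In GENCODE, 52.8% of its exon bases overlap Gm20649 on the same strand, so its value is uncertain. Isl1 rose by 4.58 (SE 0.19) with differentiation, from 28 counts over the ESC WT libraries. It was higher in NPC in both lines, by 1.17 (SE 0.09) in dCD and 0.81 (SE 0.10) in MLL2dTAG.

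**Figure D4:**
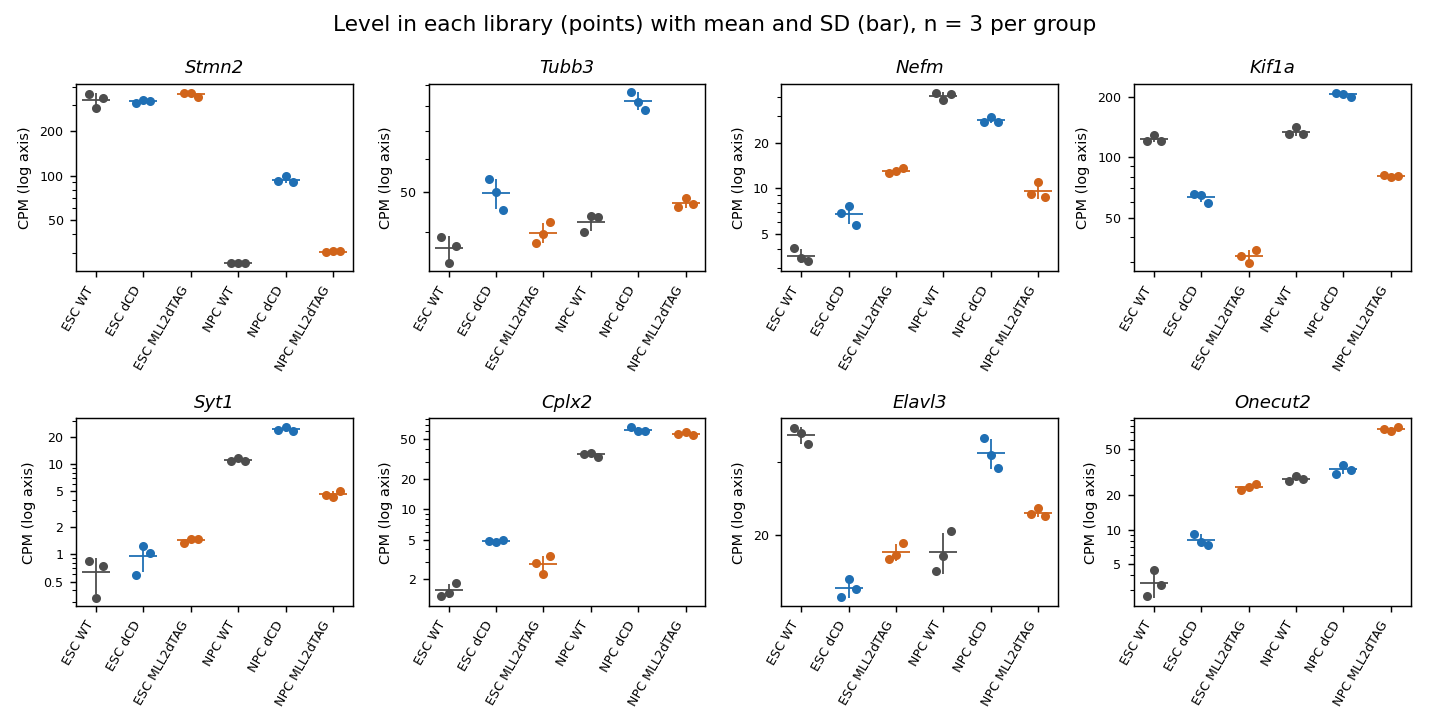
CPM on a log axis in each library (points) with mean and SD (bars) for 8 genes in the 6 groups, 3 libraries each. Syt1 and Kif1a are highest in NPC dCD and lower in NPC MLL2dTAG than in NPC WT, and Nefm reverses its order between stages.

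The dependence of each line's effect on stage was fitted as an interaction, the change against WT in NPC minus that in ESC. For dCD, 16 of the 37 genes had a more positive and 10 a more negative change in NPC, with a median of 0.38 against -0.04 over all genes, of which 42.9% were called, 20.0% positive and 22.9% negative. For MLL2dTAG 13 were more positive and 15 more negative, with a median of 0.03 against 0.05, and 49.0% of all genes were called, 26.4% positive and 22.6% negative. Upper-quartile scaling gave 11 more positive and 15 more negative there. Without ESC WT replicate 2, 17 were more positive and 9 more negative for dCD, against 41.1% of all genes called. For MLL2dTAG these counts were 14 and 15, against 47.7%. The positive MLL2dTAG interaction of Map2 lost its call under 11 of 21 alternatives, and that of Crmp1 under 14 of 21. Map2, Crmp1, Kif5c, Kif1a, Syp, Stx1a, Chga, Elavl2, Elavl3 and Celf3 were called lower in dCD ESC and higher in dCD NPC than WT, but for Crmp1, Kif5c, Syp, Stx1a and Celf3 at least 1 of the calls was lost under an alternative, as given above. Stmn3, Nefl, Nefm, Ina, Syt1, Scn3a and Onecut1 were called higher in MLL2dTAG ESC and lower in MLL2dTAG NPC, but calls of Stmn3 and Onecut1 were lost under alternatives, as given above. The share of all genes with such reversals between stages was not counted, so the reversals are not shown to be particular to these genes. Interactions that were called and at least 2-fold numbered 11 of 37 for dCD, 8 positive and 3 negative, where 11.1% of all genes passed that rule, 5.68% positive and 5.40% negative. For MLL2dTAG they numbered 18 of 37, 7 positive and 11 negative, where 17.3% of all genes passed, 8.35% positive and 8.97% negative. The largest interaction among members was that of Nefm in MLL2dTAG, -3.95 (SE 0.14). In dCD the largest were those of Dcx (-2.38) and Onecut1 (-2.32), both on few ESC counts, and the largest positive one was that of Elavl3, 2.02 (SE 0.11).

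Levels can be compared between genes only per length, here as CPM per kb of the union of GENCODE exons. In ESC WT, Stmn2 led with 58.3 ± 6.75 CPM per kb, followed by Tubb3 with 19.6 ± 1.39 and Gng3 with 15.4 ± 0.588. In NPC WT the order was Tubb3 (22.7 ± 1.14), Ncam1 (19.7 ± 0.686), Dpysl3 (19.1 ± 0.126), Kif1a (14.3 ± 0.654) and Tagln3 (14.1 ± 1.62). Ncam1 and Dpysl3 differed by less than the larger SD, as did Kif1a and Tagln3. In NPC dCD, Tubb3 reached 44.1 ± 2.12 and Tagln3 30.96 ± 1.12 CPM per kb. Onecut1 was lowest in NPC WT, with 0.509 ± 0.0447 CPM per kb.

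The same pathways hold genes outside the 37. Over all genes, 26.7% were called higher and 26.8% lower in NPC dCD, with a median of -0.02. In NPC MLL2dTAG the shares were 33.3% and 28.4%, with a median of 0.03. Of 29 other genes of the neuronal cytoskeleton and axon, 16 were higher and 7 lower in NPC dCD, and 8 higher and 16 lower in NPC MLL2dTAG, with medians of 0.24 and -0.27. The cell adhesion molecule Nrcam (1.29) led the rises in dCD, and Dclk2, a doublecortin-like kinase (-2.49), and Nfasc, an axon initial segment adhesion molecule (-2.14), fell most in MLL2dTAG. Of 38 other synaptic and secretory genes, 20 were higher and 9 lower in NPC dCD, and 7 higher and 25 lower in NPC MLL2dTAG, with medians of 0.27 and -0.49. The granin Scg2 rose by 2.56 (SE 0.34) in dCD, and Sncb (beta-synuclein), Syngr3 and the AMPA receptor subunit Gria2 changed by -3.29, -2.50 and -2.49 in MLL2dTAG. In WT, 18 of the 29 were higher in NPC and 10 lower, and 26 and 11 of the 38. In ESC, dCD gave 10 higher and 15 lower of the 29 and 4 and 18 of the 38, and MLL2dTAG gave 6 and 19, and 4 and 18. Over all genes the shares higher and lower were 39.1% and 40.4% between stages in WT. They were 25.7% and 22.6% in ESC dCD, and 28.7% and 28.2% in ESC MLL2dTAG.

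Of 18 broadly expressed relatives, such as Tubb5, Elavl1 and Kif5b, 12 were higher and 3 lower in NPC dCD with a median of 0.19, and 9 and 4 in NPC MLL2dTAG with a median of 0.10. Tagln2, a broadly expressed relative of Tagln3, led both, at 1.41 and 1.14. They were 9 higher and 3 lower in ESC dCD, 5 and 7 in ESC MLL2dTAG, and 10 and 7 in WT NPC. Against the shares of all genes given above, frequent higher calls in NPC dCD were thus not confined to the neuronal genes. Of 20 proneural and early neuronal regulators, 13 were higher and 1 lower in NPC dCD, with Ebf2 at 2.09, and 9 were higher and 4 lower in NPC MLL2dTAG, with Lhx2 at 1.42 and Neurog2 at -1.20. In ESC they were 5 higher and 2 lower in dCD and 4 higher and 11 lower in MLL2dTAG, and 14 higher and 5 lower in WT NPC. Of 9 RE1 silencing genes, 1 was higher and 6 lower in NPC dCD, 4 higher and 2 lower in NPC MLL2dTAG, 5 and 1 in ESC dCD, 6 and 1 in ESC MLL2dTAG, and 4 and 5 in WT NPC. The corepressor gene Rcor2 was lower in both lines in NPC, at -0.84 (SE 0.04) in dCD and -1.58 (SE 0.04) in MLL2dTAG. Rest itself, the DNA-binding factor, fell by 1.61 (SE 0.04) on the log2 scale with differentiation, and rose by 0.28 in NPC MLL2dTAG. Stmn1, Kif1b and Dpysl2 stand both in the cytoskeleton list and among the broad relatives.

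Markers of other cells moved with these groups, and their part in the results was not tested. Summed over the 37 genes, the level in NPC was 1226 ± 2.54 CPM in WT, 1661 ± 32.2 in dCD and 1171 ± 17.3 in MLL2dTAG. The 8 neural progenitor markers summed to 245 to 263 CPM in NPC WT, 403 to 441 in NPC dCD and 283 to 292 in NPC MLL2dTAG, with 5 of 8 higher in dCD and 3 higher and 2 lower in MLL2dTAG. They summed to 431 to 452 CPM in ESC WT, and from ESC to NPC in WT 6 rose, among them Pax6 (4.45), and Sox2, which stem cells also express, fell (-4.43). The 8 pluripotency markers summed to 30.3 to 31.2 CPM, 46.3 to 47.8 and 182 to 184 in the same order, with 2 higher and 1 lower in dCD, 7 of 8 higher in MLL2dTAG and Dppa3 at 0 in all 3 groups, against 3362 to 3646 CPM in ESC WT. The 8 endoderm markers summed to 473 to 489 CPM, 330.2 to 339.6 and 998 to 1033, with 6 lower in dCD and all 8 higher in MLL2dTAG. The 8 mesenchyme markers summed to 704 to 724 CPM, 903 to 987 and 1081 to 1089.99, with 6 higher in dCD, and 5 higher and 3 lower in MLL2dTAG. The 8 neural crest markers summed to 75.2 to 80.5 CPM, 148 to 154 and 132 to 134, with 3 higher in dCD, and 6 higher and 1 lower in MLL2dTAG. The 8 astrocyte and oligodendrocyte markers, of which 6 passed the filter, summed to 353 to 362 CPM, 194 to 205 and 279 to 282, with 3 lower in dCD and 4 in MLL2dTAG. In ESC WT the 37 genes summed to 1043 ± 29.0 CPM and the endoderm markers to 117 to 127 CPM. The mesenchyme markers summed to 482 to 600 CPM in ESC WT, 767 to 857 in ESC dCD and 867 to 923 in ESC MLL2dTAG. The cells labelled neural precursor thus held neuronal, progenitor, mesenchymal and endodermal transcripts together, but by these sums the ESC cultures held such transcripts too.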

How the data were processed

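The table deposited by the authors holds raw, unnormalized counts for each gene symbol, made with HTSeq per the submitters' processing notes from TruSeq Stranded mRNA libraries per the labels' protocols. Aligner, build and strand setting: not given in the sources used here. Of 36 samples in 14 groups, 18 samples in 8 groups were not analysed here, because 6 columns carry repeated names and 12 columns of the other table match no label.

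In R 4.3.3, edgeR 4.0.16 and limma 3.58.1 were used: filterByExpr by group, TMM factors (0.967 to 1.05), a quasi-likelihood fit of 1 coefficient for each group over 18 libraries (12 residual degrees of freedom), and a two-sided F test with Benjamini-Hochberg adjustment over 20511 genes, called at 0.05. The fit was tested on simulated data. Changes are on the log2 scale, and their standard errors (SE) come from the F statistic. The depth of 19.4 to 46.0 M counts sets a floor of 3 counts at 0.0652 to 0.154 CPM. Intervals (exact, 95%) and floors cover counting error only, since reads are not independent molecules. Even values made up 60.8% to 66.5% of counts from 1 to 10 and 48.9% to 50.4% of those over 1000, so an alternative halved all counts. No pairing by replicate number was seen in the pairs checked: 0 of 21 same-numbered pairs had a correlation over 0.1 (-0.0202 to 0.0144). The check left out ESC with NPC within dCD and within MLL2dTAG, and cannot show how the cultures were handled.

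The 37 members and the lists were chosen with earlier results of these data known. Values in every library are given, per role, for the member with the highest mean CPM and the member with the largest called change in NPC, and for members called in opposite directions in NPC. Tubb3, Dcx and the promoters were added after their values were seen. Alternatives were DESeq2 1.42.0, other scalings and filters, fits of the compared groups alone, a replicate block, halved counts and leaving out each library. Gene models are GENCODE vM21, which held 92.1% of the symbols and all 37 members.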

Additional observations from a re-analysis of the deposited data

Results flagged for a closer look

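Changes of a line against WT that differed between NPC and ESC by at least 2-fold, with the interaction called by edgeR's quasi-likelihood test after Benjamini-Hochberg adjustment over all genes, were picked out. The 2-fold limit was set after the data were seen. Of the 26 interactions called for dCD, 11 passed it, 8 positive and 3 negative, and of the 28 called for MLL2dTAG, 18 passed it, 7 positive and 11 negative. Of all 20511 genes tested, 11.1% passed the same rule for dCD and 17.3% for MLL2dTAG.

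In dCD the change was more positive in NPC for 4 genes of RNA-binding proteins, Elavl3 (2.02), Rbfox3 (1.92), Elavl2 (1.36) and Celf3 (1.04). It was also more positive for Stmn2 (1.91), Kif1a (1.59), Tagln3 (1.41) and Snap25 (1.12). It was more negative for Nefm (-1.45), Onecut1 (-2.32) and Dcx (-2.38). Onecut1 and Dcx rest on few ESC counts. For Dcx the value was -6.23 without ESC WT replicate 1, and -1.73 and -1.75 without replicate 2 or 3, when the call was lost. For Onecut1 it was -1.66 without ESC WT replicate 3.

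In MLL2dTAG the change was more positive in NPC for 4 RNA-binding protein genes, Rbfox3 (2.32), Celf3 (1.54), Elavl4 (1.28) and Elavl3 (1.246), and for Snap25 (2.09), Syp (1.22) and Kif1a (1.20). It was more negative for all 3 neurofilament genes, Nefm (-3.95), Nefl (-1.15) and Ina (-1.0), and all 3 transcription factor genes, Onecut1 (-2.25), Isl1 (-1.29) and Onecut2 (-1.29). The remaining negative values were those of Scn3a (-3.37), Syt1 (-2.47), Stmn3 (-1.62), Mapt (-1.56) and Ncam1 (-1.16). For Rbfox3 the value was 3.15 without ESC MLL2dTAG replicate 1, and for Onecut1 -1.58 without ESC WT replicate 3. Isl1 and Syt1 had 28 and 48 counts over ESC WT. The Isl1 value ranged from -1.535 to -0.9468 under the alternatives and kept its call.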

How the results depend on the processing

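The number of members called stayed within 1.5 times its value in all 9 comparisons under 9 other settings and 18 left-out libraries. Of 266 called results of single members, 233 kept direction and call throughout, and 33 lost the call under at least 1 alternative. Among these was the Dcx change of MLL2dTAG against WT in ESC, which ranged from -4.48 without ESC WT replicate 2 to 0 without replicate 1. Of 67 results not called, 20 changed sign and 28 were called under an alternative. The members' medians are descriptions and were treated as such after their values under the alternatives were seen. They reversed in 7 cases: the MLL2dTAG interaction to -0.00573 with upper-quartile scaling, -0.0557 with library totals, -0.064 without a filter and -0.0292 without ESC WT replicate 1 (up to 0.0647 with other libraries left out), and MLL2dTAG against dCD in ESC to 0.0134 without a filter, 0.0255 in the fit of the groups compared and 0.00642 without ESC dCD replicate 1 (down to -0.0681 with other libraries left out). With the replicate number as a block, 27 members were called in ESC dCD, 33 in NPC dCD, 31 in ESC MLL2dTAG and 27 in NPC MLL2dTAG. Depth limits Dcx, Stmn4, Scg3, Rbfox3, Onecut1, Isl1 and Syt1 in ESC. The cause of the lost calls was not tested.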
